A study of Mus musculus with 9 samples.

Results

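The 83 genes described here encode the proteins of the cytosolic ribosome, 51 of the large subunit (Rpl) and 32 of the small subunit (Rps), among 52636 gene identifiers in the count table. They were taken as the protein-coding nuclear genes with an Rpl or Rps symbol followed by a number, together with Rplp0, Rplp1, Rplp2 and Rpsa, without pseudogenes and without the Rps6k kinases. Rps4l, a relative of Rps4x, is annotated as a transcribed processed pseudogene and is not among them. The mice were C57BL/6 males, and the RNA came from cells of the nucleus accumbens that were sorted on an Alexa 488 anti-ChAT stain. ChAT makes acetylcholine and defines the cholinergic interneurons of the striatum. The 9 libraries form 3 groups of 3. The drug-naive group, whose library titles read WT, had no cocaine. The groups titled RES and SUS took cocaine by self-administration, with up to 40 infusions on a fixed ratio, followed by 10 daily progressive ratio sessions of 23 h at 1.2 mg/kg per infusion, with tissue taken on day 3 after the last session. Tissue punches were pooled from 2 to 3 mice per condition, and it is not stated if each library had its own pool, so every p-value measures only the spread between these libraries. For RES and SUS the behavioural phenotype field contradicts the titles. RES and SUS are called by title here, and no direction is read as susceptible or resilient.

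Each ribosome carries 1 copy of most of these proteins, which fold around the ribosomal RNAs, and cells make the proteins in matched amounts. Their mRNAs are short, abundant and known for a run of pyrimidines that begins with a C at the very start of the transcript, the terminal oligopyrimidine (TOP) tract, through which mTOR signalling sets how strongly they are translated. In brain, ribosomal protein mRNAs are found in neurons and glia alike, in the cell body and in processes. The family is also known for its many processed pseudogenes, copies of the mRNAs inserted elsewhere in the genome.

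The start of the transcript is the sequence feature for which the family is known, so 30 bases around it are shown for members with and without a tract. Each line holds the 10 bases before the annotated start and the first 20 transcribed bases, on the gene's strand, from RefSeq on GRCm38.p6, and capitals mark the tract, a C followed by at least 4 C or T letters. In the first 4 such a tract can be read exactly from the annotated start on. They are Rps6, whose protein is the small subunit's target of S6 kinase, the stalk gene Rplp2, Rps10 and Rps27. The letter just before the start is C or T as well in all 4, and the capitals leave out such earlier letters.
Rps6, chr4:86857348-86857377 (minus strand): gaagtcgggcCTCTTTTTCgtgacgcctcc
Rplp2, chr7:141447641-141447670 (plus strand): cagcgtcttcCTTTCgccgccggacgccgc
Rps10, chr17:27635225-27635254 (minus strand): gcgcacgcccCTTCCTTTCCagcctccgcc
Rps27, chr3:90213629-90213658 (minus strand): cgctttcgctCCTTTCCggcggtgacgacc
The next 4 hold no such tract at or within 5 bases of the annotated start, and 3 of them are marker genes of the family.
Rplp0, chr5:115559457-115559486 (plus strand): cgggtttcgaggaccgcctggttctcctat
Rpl27, chr11:101442235-101442264 (plus strand): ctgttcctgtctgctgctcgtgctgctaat
Rps25, chr9:44407704-44407733 (plus strand): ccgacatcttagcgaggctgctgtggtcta
Rpsa, chr9:120127756-120127785 (plus strand): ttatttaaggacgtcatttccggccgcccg

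Of the 63 members with an entry in that table, 13 (20.6%) had the tract exactly at an annotated start, against 3.01% of all 27025 genes of the table. Within 5 bases of the start, 29 members (46.0%) had one, against 21.2% of all genes. Of 69 genes for mitochondrial ribosomal proteins, 0 had it exactly at the start and 17 within 5 bases. The match describes letters at an annotated start, which can lie some bases away from the start that cells use, so a line without capitals does not show that the mRNA lacks a tract. Members with and without a tract within 5 bases had median fold changes of -0.69 and -0.70 on the log2 scale in RES against naive, and of 1.19 and 1.29 in SUS against RES (29 and 33 tested members).

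Library totals ran from 4471675 to 11155730 counts. Markers of cholinergic interneurons lay near the background, with a median over 8 genes of 1.00 to 2.09 times background per library. Background is the count density, in counts per kb of exon, of 1134 olfactory receptor genes, which are taken here as not expressed in these cells. Spread evenly over the exons of all nuclear genes, that density would make up 23.8% to 50.4% of nuclear counts, the most in RES replicate 3. Red blood cell markers were as low, with medians of 0.888 to 2.09, and markers of oligodendrocyte precursors, border and blood macrophages, and endothelial and mural cells had medians of 1.47 to 3.70. Astrocyte markers had 3.86 to 19.8. The median over 18 microglial genes was 17.5 and 34.8 times background in naive replicates 1 and 2, 15.9 in RES replicate 1, 36.2 and 52.1 in SUS replicates 1 and 3, and 2.27 to 3.75 in the other 4 libraries, with 0 of the 18 genes at 0 counts in any library.

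Most ribosomal protein genes lay above the olfactory receptor background. Averaged over the 9 libraries, 71 of the 83 members (85.5%) were more than 3 times background, 41 of the large and 30 of the small subunit, against 26.3% of 21883 protein-coding nuclear genes. A member high in only some of these libraries could pass through them. Counts of libraries or groups over the 71 are therefore partly set by this choice. By mean count density (CPM per kb of exon), the most abundant were Rplp1 at 140.8, Rps23 at 67.9 and Rps3a1 at 54.3, which averaged 75.0, 36.2 and 28.0 times background. Rplp1 encodes an acidic stalk protein, Rps23 a protein of the decoding centre and Rps3a1 a further small subunit protein. Set against 40 autosomal genes taken as silent in brain, instead of olfactory receptor genes, the members' median per library was lower, from 1.11 in RES replicate 3, 1.55 in RES replicate 2, 1.98 in SUS replicate 2 and 2.38 in naive replicate 3 up to 10.03 in SUS replicate 3. The median of these 40 genes was itself 1.60 to 2.20 times the olfactory receptor background per library, so 3 times background is not far above them. The lowest members were Rpl22l1 at 1.66, Rpl13a at 1.01 and Rpl24 at 0.38 times background. Rpl24 had 0 to 13 counts per library and was the 1 member too low to be tested, with 0 counts in SUS replicate 3, which allows up to 0.363 CPM there. Both Rpl13a and Rpl24 encode proteins that ribosomes carry as a rule, and 57.4% and 81.7% of their transcripts' 50-base windows also occur in other annotated genes. Whether reads that match several places were counted is not given in the sources used here, and its part in these low values was not tested.

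The level of the family differed between libraries more than between groups. The members' median was 6.56, 12.1 and 4.72 times background for naive replicates 1 to 3, 8.12, 3.26 and 2.03 in RES libraries and 12.5, 3.86 and 15.8 in SUS. The group means of these medians were 7.80 ± 3.85 for naive, 4.47 ± 3.22 for RES and 10.7 ± 6.14 for SUS (SD, n = 3 libraries each). Each group holds both high and low libraries, so the 3 ranges overlap. Over all 9 libraries the highest was 7.74 times the lowest, and within groups the ratio was 2.57 in naive, 3.99 in RES and 4.08 in SUS. As a share of all counts, the members took 0.277%, 0.333% and 0.159% in naive, 0.254%, 0.116% and 0.125% in RES libraries and 0.383%, 0.147% and 0.711% in SUS. Set against the median of all expressed protein-coding genes of the same library, the members' median ran from 0.596 times in RES replicate 2 to 4.02 times in SUS replicate 3. It was under that of expressed genes in RES replicates 2 and 3 and in SUS replicate 2.

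**Figure D1:**
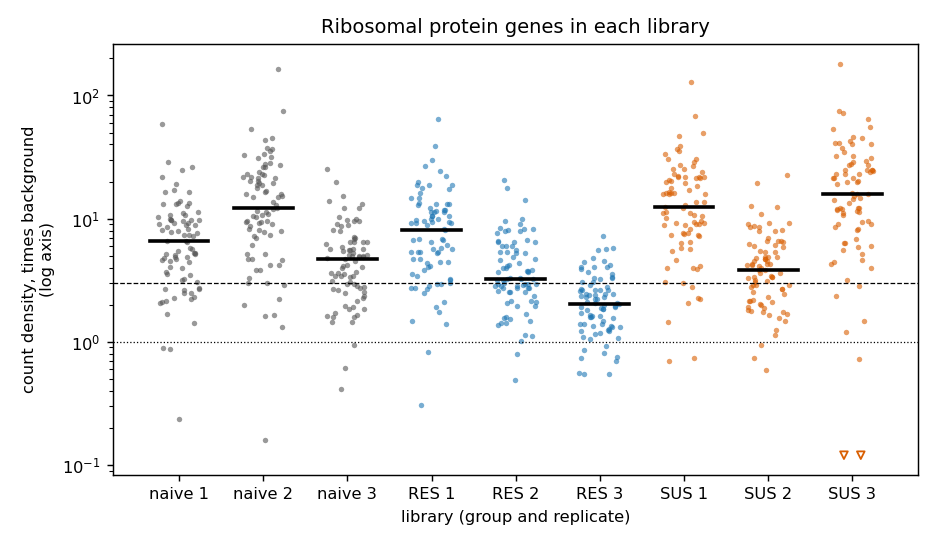
Count density of each of the 83 ribosomal protein genes (points) in each library, as times background on a log axis, with the median of each library as a bar, the background as a dotted line and 3 times background as a dashed line. Open triangles are the 2 members with 0 counts in SUS replicate 3, drawn at an arbitrary low position. The medians run from 2.03 in RES replicate 3 to 15.8 in SUS replicate 3, and the 3 groups overlap.

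The members had nearly the same order of libraries. Of the 71 members over 3 times background, 67 were highest in SUS replicate 3, 2 in SUS replicate 1 and 2 in naive replicate 2. The mean that picked the 71 includes these libraries, so such counts are descriptions only. The lowest library was RES replicate 3 for 60 of them, RES replicate 2 for 8 and SUS replicate 2 for 3. The ratio of the highest to the lowest library, in CPM with TMM scaling (edgeR's trimmed mean method), had a median of 9.48 over these members. It was smallest for Rps19 at 2.20 and largest for Rplp1 at 24.6, both named for their place at the ends of this range.

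Microglial markers had the same split of libraries. For 68 of the 71 members, the CPM of naive replicates 1 and 2, of RES replicate 1 and of SUS replicates 1 and 3 was each higher than each of naive replicate 3, RES replicates 2 and 3 and SUS replicate 2. These are the 5 libraries with a microglial median of at least 15.9 times background and the 4 with at most 3.75. The mean that picked the 71 weighs the high libraries most, so the 68 are partly set by that choice. How many of all genes have the same split was not counted, so the 68 are a description only. The summed CPM of the 18 microglial genes was 2262, 4153 and 418 in naive, 2280, 193 and 275 in RES libraries and 5155, 363 and 7080 in SUS. The summed CPM of 16 oligodendrocyte markers had the same split. It was 983, 1680 and 480 in naive, 974, 647 and 352 in RES libraries and 2725, 656 and 962 in SUS. By list median, RES replicate 2, at 4.13 times background, lay above RES replicate 1 at 4.07 and SUS replicate 3 at 4.06. Markers of medium spiny neurons followed another order, with medians of 4.15, 8.89 and 7.68 times background for naive, 6.33, 11.4 and 2.83 in RES libraries and 4.22, 9.74 and 2.88 in SUS. Mitochondrial genes took 17.7% to 28.7% of counts in the 5 libraries and 9.09% to 17.1% in the other 4, the same split with a narrow gap. In bulk RNA, more cells of a type and more RNA per cell cannot be told apart. The part of microglia, of oligodendrocytes or of the mitochondrial share in the ribosomal values was not tested.

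**Figure D2:**
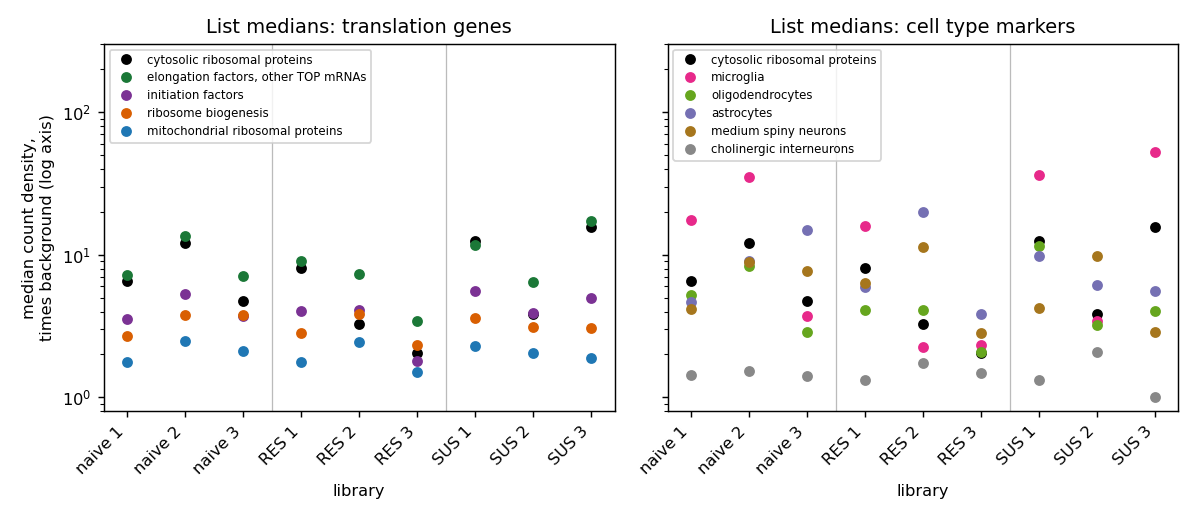
Median count density of each gene list in each library, as times background on a log axis, for genes of translation (left) and for cell type markers (right), with the ribosomal protein genes in black in both panels. Grey lines separate the groups. Microglial markers and the ribosomal protein genes are high in the same 5 libraries, and mitochondrial ribosomal protein genes stay between 1.503 and 2.49.

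The marker genes of the family show the pattern gene by gene. Rplp0 encodes the protein that anchors the stalk of the large subunit, where elongation factors dock (chr5:115559467-115563727). Its CPM was 47.2, 114.6 and 33.8 in naive, 54.3, 23.6 and 15.0 in RES libraries and 119.8, 28.6 and 150.4 in SUS. The group means were 65.2 ± 43.3, 31.0 ± 20.7 and 99.6 ± 63.4 (SD, n = 3). SUS replicates 1 and 3 were above all naive libraries and SUS replicate 2 was below them, so the groups overlap.

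Rpl27, which encodes a large subunit protein, had 17.5, 32.0 and 19.5 CPM in naive, 22.1, 7.73 and 12.5 in RES libraries and 31.8, 15.0 and 29.9 in SUS. Its group means were 23.0 ± 7.89, 14.1 ± 7.31 and 25.6 ± 9.23 (SD, n = 3). It varied less than the other markers, and RES replicate 2 rather than 3 was its lowest library. Rps20, a small subunit protein at the head of the subunit, had 23.5, 39.0 and 11.7 CPM in naive, 22.6, 11.17 and 6.503 in RES libraries and 43.5, 15.5 and 62.99 in SUS. Means were 24.7 ± 13.7, 13.4 ± 8.29 and 40.7 ± 23.9. Rps25, a small subunit protein known for its role in initiation at viral internal ribosome entry sites, had 13.6, 23.3 and 8.98 CPM in naive, 18.9, 7.73 and 5.33 in RES libraries and 30.1, 8.87 and 54.9 in SUS. In all 4 markers the lowest SUS library lay below the highest RES library.

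**Figure D3:**
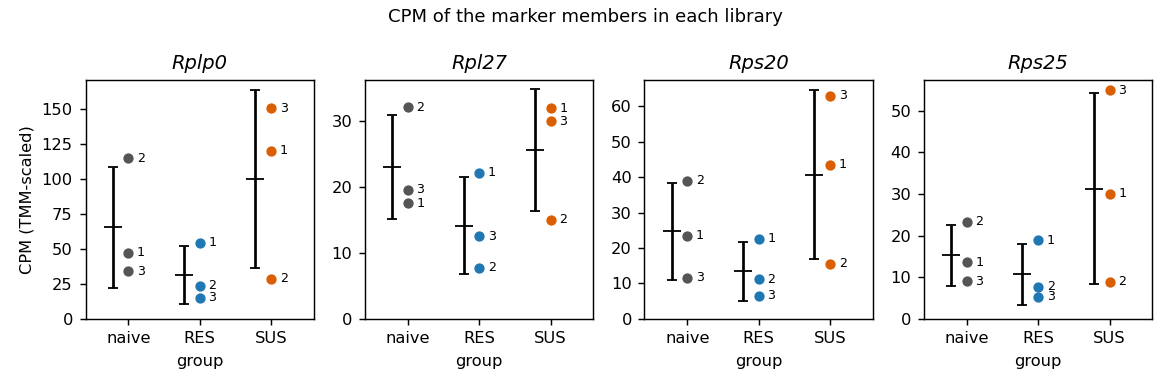
TMM-scaled CPM of Rplp0, Rpl27, Rps20 and Rps25 in each library, as points labelled with the replicate number, with the mean and SD of each group (n = 3) in black. Each vertical axis starts at 0 and has its own range. In every panel SUS replicate 2 lies below RES replicate 1.

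Other members with well-known roles had a similar order of libraries. Rplp1 and Rplp2, whose proteins pair up on the stalk, had 24.6 and 20.4 CPM in naive replicate 3 and 205 and 189 in SUS replicate 3. The lowest Rplp1 value was 8.32 CPM in RES replicate 3. Rpl5 and Rpl11 encode the proteins that carry 5S ribosomal RNA and, when free, bind Mdm2. Rpl5 had 77.5, 139 and 42.5 CPM in naive, 91.1, 31.6 and 20.9 in RES libraries and 140.4, 35.03 and 221.6 in SUS. Rpl11 was flatter, at 34.0, 51.7 and 25.7 CPM in naive, 36.1, 21.3 and 13.01 in RES libraries and 50.5, 19.4 and 86.3 in SUS. Rps6 had 39.1, 75.9 and 24.98 CPM in naive, 40.3, 14.4 and 13.4 in RES libraries and 60.8, 20.95 and 125.0 in SUS. Rpsa, which encodes the small subunit protein also described as a laminin receptor, had 76.6, 162.3 and 76.2 CPM in naive, 124.6, 43.4 and 23.3 in RES libraries and 147.4, 68.6 and 205.9 in SUS. In these 6 genes too, SUS replicate 2 was below RES replicate 1.

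RES against naive asks how 1 of the cocaine groups differs from mice without the drug. Most members were lower on average in RES, yet none passed the test. The log2 fold change was below 0 for 80 of 82 tested members, where 52.6% of all 39210 genes tested were below 0, and the median was -0.72 against -0.02 over all genes. Of the 5741 tested protein-coding genes over 3 times background, 4514 were below 0 as well. The edgeR quasi-likelihood test with Benjamini-Hochberg adjustment called 0 members, and 0% of all genes. At an unadjusted p under 0.05 it had 0 members and 0.921% of all genes, and DESeq2 and limma-voom likewise called 0 members. The members with the smallest p were Rpl27, at a log2 fold change of -0.68 (SE 0.377), Rplp0 at -1.06 (SE 0.599) and Rps6 at -1.03 (SE 0.581). Rps20 was at -0.86 and Rps25 at -0.48. The groups of 0 members were apart from each other, where 2.82% of all genes were apart with RES lower and 3.31% with RES higher.

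RES replicate 1 stood against its group. Of the 71 members over 3 times background, RES replicate 2 was below the lowest naive library for 68 and RES replicate 3 for 70, but RES replicate 1 for 0. The mean that picked the 71 includes all these libraries, so such counts are partly set by that choice. Without RES replicate 1 the median fold change was -1.53 and 62 members had an unadjusted p under 0.05, with none called after adjustment. In that fit 825 of all 41550 genes tested were at that level. The members' median was -0.26 without naive replicate 2, -0.39 without RES replicate 3 and -0.28 with limma-voom. Microglial markers had a median of -1.29 over 18 genes in the same comparison, all 18 below 0. Markers of oligodendrocytes had -0.50, with 15 of 16 below 0. The part of either list in the ribosomal values was not tested.

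SUS against naive gave differences in the other direction, again without a call. The log2 fold change was above 0 for 78 of 82 members, where 52.2% of all genes tested were above 0, with a median of 0.57 against 0.02. Of the protein-coding genes over 3 times background, 3029 of 5741 were above 0. No member was called by edgeR, DESeq2 or limma-voom, and edgeR called 0% of all genes. At an unadjusted p under 0.05 edgeR had 0 members and 3.12% of all genes. Rps25 had the smallest p, at a log2 fold change of 1.08 (SE 0.548). Rplp0 was at 0.62, Rps20 at 0.75 and Rpl27 at 0.17. In Rps25 the groups overlap through SUS replicate 2, at 8.87 CPM, which lay under all 3 naive libraries. The groups of 0 members were apart, where 3.85% of all genes were apart with SUS higher and 4.15% with SUS lower.

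The direction rested on SUS replicates 1 and 3. Of the 71 members over 3 times background, 46 in SUS replicate 1 and 68 in SUS replicate 3 were above the highest naive library, while in SUS replicate 2 the count was 0 and 55 were below the lowest. High values in SUS replicates helped members to pass that level, so these counts are partly set by the choice. The median fold change was 0.09 without SUS replicate 3 and 0.98 without SUS replicate 2. Leaving out naive replicates gave 0.28 for replicate 3 and 1.03 for replicate 2. With SUS replicate 2 left out, 38 members had an unadjusted p under 0.05, as had 3576 of all 40455 genes tested in that fit. Microglial markers had a median of 0.86 here, all 18 above 0, and markers of oligodendrocytes 0.46, with 14 of 16 above 0. Their part was not tested.

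SUS against RES compares the groups that both took cocaine, and it held the largest differences between the members' group means. The log2 fold change was above 0 for 78 of 82 members, where 51.2% of all genes were above 0, and the median was 1.30 against 0.01 over all genes. Of the protein-coding genes over 3 times background, 3630 of 5741 were above 0. Again edgeR called 0 members and 0% of all genes, with 0.87 as the smallest edgeR adjusted p among members. Without SUS replicate 2 that value was 0.061, and under total-count scaling it was 0.135. At an unadjusted p under 0.05 there were 60 members, all higher in SUS, where 5.68% of all genes tested passed that level and 4.01% passed it with SUS higher. It was also passed by 648 of the 5741 protein-coding genes over 3 times background. Of the members with the smallest p, Rps20 was at a log2 fold change of 1.60 (SE 0.526). Rpl7a, a large subunit protein, was at 1.71 (SE 0.582), with 38.7, 14.8 and 10.7 CPM in RES and 57.2, 23.3 and 129.4 in SUS. Rplp0 was at 1.69, Rps25 at 1.56 and Rpl27 at 0.85. The groups of 0 members were apart, where 3.41% of all genes were apart with SUS higher and 4.22% with SUS lower.

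The 60 members at an unadjusted p under 0.05 became 4 without RES replicate 2, 2 without RES replicate 3, 2 without SUS replicate 3 and 34 without SUS replicate 1. Over all genes, 1674 of 41381, 1127 of 40449, 1171 of 40222 and 2215 of 40802 were at that level, in the same order. Members were 8 with limma-voom, 18 when only genes over 3 times background were tested, and 77 without RES replicate 1. All genes gave 3367 of 39210, 262 of 5741 and 2649 of 41550 in these settings. Leaving out replicate 3 of both groups, a choice made after seeing the data, the members' count became 0 and their median 0.50. In that fit 764 of 39167 genes were at that level. Without SUS replicate 3 alone the median was 0.85, and without RES replicate 1 it was 2.06. Microglial markers had a median of 2.09, with 12 of 18 at an unadjusted p under 0.05, and markers of oligodendrocytes 1.00, with 7 of 16. Their part was not tested.

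Both cocaine groups together against naive gave values near 0. The log2 fold change was above 0 for 60 of 82 members, where 51.4% of all genes were above 0, with a median of 0.10, and for 2232 of the 5741 protein-coding genes over 3 times background. No member was called, as for 0% of all genes, and 0 members had an unadjusted p under 0.05, where 1.38% of all genes did. Rps25 was at 0.51 (SE 0.598), the smallest p among members above 0. Among members below 0 and over 3 times background, the smallest p were those of Rpl27 at -0.19, Rps10 at -0.18 and Rpl39 at -0.21. The groups of 0 members were apart, where 0.617% of all genes were apart with cocaine higher and 0.553% with cocaine lower. The sign of the median depended on the model, since the contrast of the same libraries in the 3-group model gave -0.06 with 25 members above 0, and it was -0.34 without SUS replicate 3 and 0.52 without naive replicate 2. It was also below 0 without naive replicate 3, at -0.19, and without SUS replicate 1, at -0.06. These 4 comparisons share libraries, so their values are not independent of each other.

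**Figure D4:**
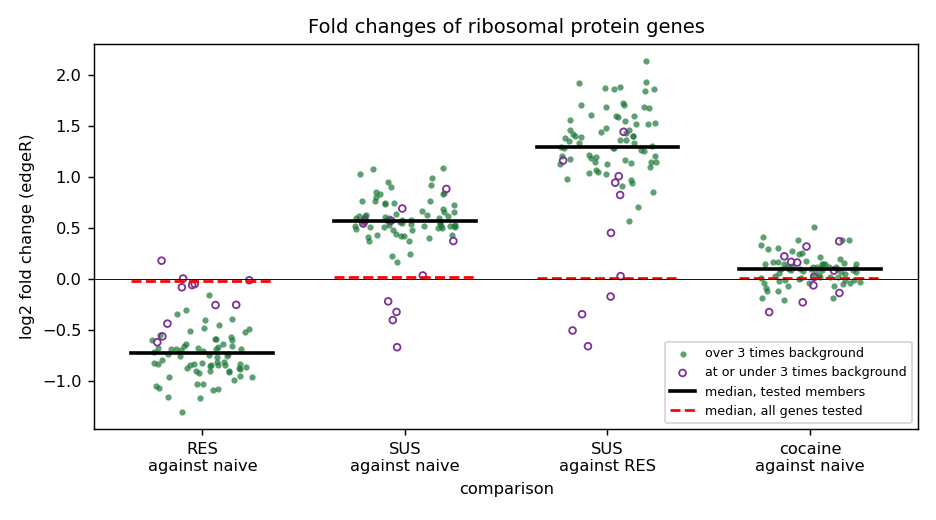
Log2 fold change (edgeR) of each of the 82 tested ribosomal protein genes in the 4 comparisons, with members over 3 times background filled and the others open. The black bar is the median of the tested members and the red dashed line that of all 39210 genes tested. The members' medians are -0.72, 0.57, 1.30 and 0.10, with 0 members called at an adjusted p under 0.05.

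The subunits had similar medians. For RES against naive the median was -0.68 over 50 large subunit members and -0.76 over 32 of the small subunit. The medians were 0.56 and 0.59 for SUS against naive, and 1.23 and 1.38 for SUS against RES. The 11 tested members at or under 3 times background had medians nearer to 0, at -0.08, 0.37 and 0.45 in these comparisons, and the 71 above it had -0.76, 0.58 and 1.37. The 11 include all the paralogs described below. In SUS against RES the rest of the 11 were at 1.16 for Rpl18, 1.01 for Rpl35a, 0.83 for Rps15a, 1.45 for Rpl35 and 0.03 for Rpl13a. These medians and the correlations below therefore mix level with being a paralog. Counts at background density are part of every value and weigh most in the low members. Their part in these fold changes was not tested. Across the 82 tested members, Spearman's rho of level and fold change was -0.63 in RES against naive, 0.17 in SUS against naive and 0.51 in SUS against RES. These are descriptions across genes of shared libraries.

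The 6 paralogs of other members averaged under 3 times background. Rpl3l, the striated muscle relative of Rpl3, was 2.53 times background, with 8.002, 8.77 and 11.0 CPM in naive, 6.31, 7.95 and 12.4 in RES libraries and 7.26, 9.42 and 4.47 in SUS. Its highest library was RES replicate 3 and its lowest SUS replicate 3, the reverse of Rpl3, which was 12.8 times background with 21.1 CPM in RES replicate 3 and 175.7 in SUS replicate 3. RES replicate 3 was also the library with the most nuclear counts at background density, 50.4%. The part of background counts in the paralogs' values was not tested. Rpl10l and Rpl39l, relatives of the X-linked Rpl10 and Rpl39 known from testis, were 2.39 and 2.29 times background. Rpl10 and Rpl39 were 10.9 and 3.59. Rpl39l had 0 counts in SUS replicate 3, which allows up to 0.363 CPM, and 3.02 to 6.015 CPM in the other 8 libraries. Rps27l was 2.46 times background, with 1.33 to 6.14 CPM, against 8.11 for Rps27, with 3.90 to 47.9 CPM. These 4 paralogs were the members with a fold change below 0 in SUS against RES, at -0.34 for Rpl3l, -0.50 for Rpl10l, -0.66 for Rpl39l and -0.17 for Rps27l, none of which passed the test.

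Of the other paralogs, Rpl7l1, whose product is placed in ribosome assembly, was 2.67 times background and had 10.5 to 27.0 CPM over the libraries. Its partner Rpl7 was 12.9 times background and had 13.8 to 164.6 CPM. Rpl22l1 was 1.66 times background, with 3.87, 6.05 and 7.50 CPM in naive, 6.13, 5.37 and 3.38 in RES libraries and 5.63, 8.54 and 14.3 in SUS. Its log2 fold change was 0.95 (SE 0.366) for SUS against RES, the same value as for Rpl22 (SE 0.505), which was 8.71 times background.

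By list median, other genes of protein synthesis varied less between libraries than the ribosomal protein genes. The elongation factors and further genes with TOP mRNAs (12 genes) were nearest, with medians of 7.15, 13.5 and 7.08 times background for naive, 9.10, 7.38 and 3.42 in RES libraries and 11.6, 6.44 and 17.3 in SUS. Their summed CPM ran from 338 in RES replicate 3 to 2896 in SUS replicate 3. In the log2 fold change, their median was -0.39 with RES against naive, 0.39 with SUS against naive and 0.65 with SUS against RES, where 4 of 12 had an unadjusted p under 0.05. Among them, Eef1b2, a subunit of the exchange factor of eEF1A, was at 1.81 (SE 0.679) and Eef1a1, which brings tRNAs to the ribosome, at 1.89 (SE 0.838) for SUS against RES. Both were above the ribosomal protein genes' median of 1.30 in that comparison, while the median of their own list was 0.65. Initiation factors (33 genes) had median log2 fold changes of -0.25, 0.23 and 0.41 in these comparisons, with Eif3h at 1.16 and Eif1 at 1.38 for SUS against RES. Ribosome biogenesis factors (35 genes), which process ribosomal RNA and assemble subunits in the nucleolus, had -0.16, -0.003 and 0.16, with Npm1 at 1.04 and Nop2 at 0.79. Mitochondrial ribosomal proteins (76 tested), which build the separate ribosome of mitochondria, had -0.03, 0.14 and 0.15, with Mrpl34 at 1.18 and Mrpl52 at 0.77. All protein-coding genes over 3 times background had -0.16, 0.02 and 0.12. Median levels per library were low for the biogenesis factors, at 2.34 to 3.86 times background, and for mitochondrial ribosomal proteins, at 1.503 to 2.49. Counts at background density weigh more in lists this low, and their part in these fold changes was not tested. Outside the naming rule for members, Fau, which encodes a fusion of a ubiquitin-like protein and Rps30, was 21.3 times background and at 1.78 (SE 0.784), and Rack1, a scaffold on the small subunit, was 3.70 times background and at 1.19 (SE 0.538) for SUS against RES. In these lists edgeR called 0 genes at an adjusted p under 0.05 in the 3 pairwise comparisons, as it did over the whole table.

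The members lie on 19 chromosomes, with 4 of them on X. Their transcripts are copied widely through the genome. The table holds 292 pseudogenes named after ribosomal protein genes, and 79 of the 83 members share at least 1 50-base window of their main transcript with an annotated pseudogene, with a median of 8 pseudogenes per member. The median share of windows found in another annotated gene was 53.6%, and 46 members had more than 50%. The highest shares were 98.6% for Rps27, 95.1% for Rpl35 and 93.8% for Rpl5, and Rpl7a shared windows with 97 pseudogenes, the most of these members. The paralogs Rpl3l and Rpl39l shared none. The counts of a member with many copies are uncertain, since the counting could have split its reads or left them out. Spearman's rho of level and share across members was 0.04, a description across genes. The median fold change was -0.68 in the 45 tested members with over 50% of windows shared and -0.75 in the other 37 for RES against naive, 0.57 and 0.56 for SUS against naive, and 1.29 and 1.34 for SUS against RES.

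**Figure D5:**
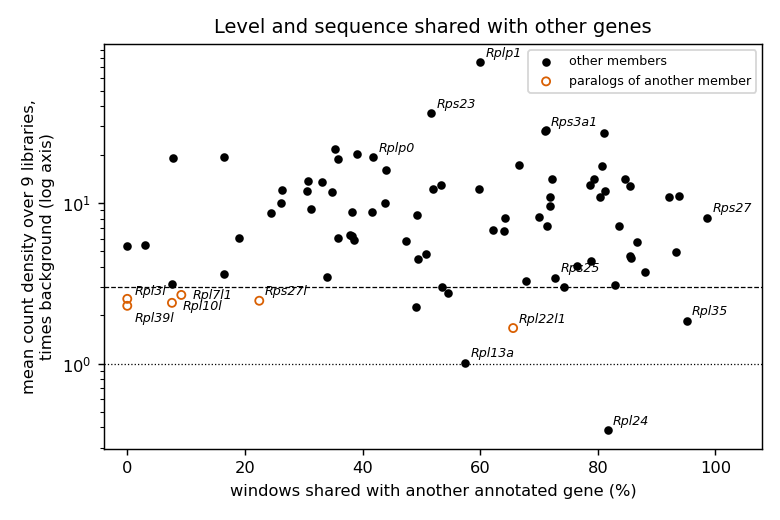
Mean count density over the 9 libraries, as times background on a log axis, against the share of 50-base windows of the main transcript found in another annotated gene, for each of the 83 ribosomal protein genes (points), with paralogs of another member as open circles. The dashed line is 3 times background and the dotted line background. Levels are spread over the whole range of shares, with Rplp1 at the top and Rpl24 at the bottom.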

How the data were processed

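Raw counts per gene in 9 libraries were deposited by the authors as 1 table of whole numbers without scaling. Per the submitters' processing notes, FastQC, STAR 2.5.2b, HTSeq, DESeq, DESeq2 and the build GRCm38 were used, and strand setting and annotation release are not given in the sources used here. GENCODE M21 (GRCm38) gave symbols, biotypes and exon lengths for 52489 of 52636 identifiers. After filterByExpr and TMM scaling, 39210 genes entered the quasi-likelihood F test of edgeR 4.0.16 in R 4.3.3 (with limma 3.58.1), and p-values were adjusted by Benjamini-Hochberg with a threshold of 0.05. Pairwise comparisons came from 1 model of 3 groups, cocaine against naive from a model of 2. DESeq2 1.42.0, limma-voom with quality weights, other scalings and filters, a replicate block and leaving out libraries were alternatives. The code was tested on simulated data. Depth was 4471675 to 11155730 counts per library, and intervals from counts cover counting error only. Spearman correlations between libraries were 0.893 to 0.969 over genes, and no 2 columns were identical.

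Members and lists were chosen with earlier results of these data known. Named members are the family's markers, the 3 with the smallest p per direction and comparison among those over 3 times background, the 3 highest and lowest by count density, paralogs with partners, and Rplp0, Rplp1, Rplp2, Rpsa, Rpl5, Rpl11 and Rps6 for their roles, and in each other list those with the smallest p. Some members that this rule takes are not reported here. Promoter starts came from RefSeq (GRCm38.p6), and 20 members had no entry.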

Additional observations from a re-analysis of the deposited data

How the results depend on the processing

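No member was called under any setting tried in the 4 comparisons, and the pairwise medians kept their sign in all of them. The cocaine median against naive turned, at -0.15 with 19 members higher under limma-voom, -0.11 with 24 under the replicate block, -0.061 with 25 as a contrast of the 3-group model and -0.13 with 19 without RES replicate 3 and SUS replicate 3. Leaving out 1 library gave it -0.34 to 0.52, with 3 to 78 members higher. Same-numbered libraries deviated with correlations of -0.17 to 0.172, within the -0.31 to 0.30 of pairs with other numbers. The labels state no pairing, and these correlations cannot decide if the numbers pair libraries. The block left 61 members at an unadjusted p under 0.05 for SUS against RES, where 1995 of all 39210 genes were at that level. For RES against naive, members there numbered 9 under total counts and 8 in a fit of only the groups compared. Over all genes these were 300 of 39210 and 671 of 35922. For SUS against naive, members numbered 16 under total counts, 6 under limma-voom, 1 under TMM over expressed genes and 1 without a filter. Over all genes these were 560, 3225 and 377 of 39210 and 1624 of 50079. For SUS against RES, members numbered 8 under limma-voom, 18 among genes over 3 times background and 0 without RES replicate 3 and SUS replicate 3. Leaving out 1 library gave 0 to 62, 0 to 38 and 2 to 77 members in the order of these comparisons. Over all genes the same fits gave 246 to 825, 733 to 3576 and 1127 to 4712. Rps25 turned to 0.077 for RES against naive under limma-voom, and Rpl27 ranged from -0.029 (without SUS replicate 1) to 0.46 for SUS against naive. For cocaine against naive, the ranges were -0.37 to 0.11 for Rpl27, -0.53 to 0.21 for Rps10 and -0.49 to 0.24 for Rpl39, positive without naive replicate 2. Rps25 ranged from -0.037 without SUS replicate 3 to 0.91. The cause was not tested. Total-count scaling moved the median of all genes to 0.23 for RES against naive, to -0.21 for SUS against RES and, for cocaine, to 0.14. Under TMM over expressed genes the first 2 were 0.21 and -0.28. With silent genes as background, the middle of the 9 library medians was 3.83 instead of 6.56 times, and all 9 were lower. Allowing 5 bases moved the share of members with a start tract from 20.6% to 46.0%. With 3 libraries a group, the spread between libraries limits what the tests can call.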
